A study of Drosophila melanogaster with 6 samples.

Results

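The storage and yolk protein genes of the fly fat body were followed in RNA-seq read counts from whole heads of 4-day-old wild type female Canton S Drosophila melanogaster. The set has 9 genes of the 17509 in the count files, chosen by name and taken by their FlyBase identifiers. It holds the 4 hexamerin genes Lsp1alpha, Lsp1beta, Lsp1gamma and Lsp2, the fat body protein genes Fbp1 and Fbp2, and the yolk protein genes Yp1, Yp2 and Yp3. The vitamin A deprived flies (3 libraries) were raised on minimal food without beta-carotene, and the vitamin A replete flies (3 libraries) on the same kind of food with beta-carotene. Both groups share the strain, the sex, the age, the temperature of the incubators and the minimal diet. The labels do not say how many heads went into a library or whether replicate libraries come from different flies. The p-values set the difference between the diets only against the spread of these libraries within a group, and that spread may be technical.

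The insect fat body makes and secretes most proteins of the haemolymph. Hexamerins are large 6-subunit storage proteins that the late larval fat body releases and takes up again before metamorphosis, as a store of amino acids, and Lsp2 is also transcribed in adult fat body, including that of the head. Yolk proteins are made by the fat body of adult females and by the follicle cells of the ovary, and the growing oocyte takes them up through the receptor Yolkless. Their transcription in the fat body depends on the female form of the sex determination factor doublesex, on nutrition and on ecdysone and juvenile hormone. Beta-carotene is the dietary source from which flies make vitamin A and the chromophore of their visual pigments. The comparison asks how these transcripts differ in heads when the diet lacks it.

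Total counts were 21344395 to 24165187 in the deprived libraries and 15668307 to 17935321 in the replete libraries, so every deprived library was the deeper one. Of 10896 genes tested over the whole table, 32 were higher (0.294%) and 4 lower (0.0367%) in deprived heads (edgeR quasi-likelihood test, Benjamini-Hochberg (BH) adjusted p under 0.05). Head tissue was present in all 6 libraries, with ninaE, the main rhodopsin gene, at 11169 to 13214 CPM (the count scaled to a TMM-adjusted library total) in deprived heads and 10472 to 12207 CPM in replete heads. Of 5 genes of the male accessory gland, 3 had 0 counts in every library and the most abundant, Acp36DE, stayed between 1.02 and 5.12 CPM. Replete library 2 stood apart in some transcripts that belong to the abdomen. The summed level of 16 eggshell genes of ovarian follicle cells was 3.32 to 4.84 CPM in the deprived libraries, against 61.6 CPM in replete library 2 and 3.35 and 3.44 CPM in the other replete libraries. Cyp4g1, a gene of oenocytes, was at 1.59 to 3.23 CPM in the deprived libraries, against 151 CPM in replete library 2 and 2.98 and 5.54 CPM in the others. Log2 fold changes of Lsp2, Lsp1gamma and the yolk protein genes are therefore also given without replete library 2. So is the count of called genes of the set. Female germline transcripts, by contrast, were highest in replete library 1, with a sum of 91.8 CPM. Their sum was 57.4 CPM in deprived library 2 and 47.0 CPM in replete library 2.

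The genes of the set lie on chromosome arms X, 2L and 3L, by coordinates of the BDGP6.54 assembly as Ensembl annotates it, matched by identifier. Yp1 (FBgn0004045, X, 10053811 to 10055498, plus strand) and Yp2 (FBgn0005391, X, 10050951 to 10052636, minus strand) point away from each other across 1174 bases, while Yp3 (FBgn0004047) lies apart on X at 13759546 to 13761547. The hexamerin genes are scattered, with Lsp1alpha (FBgn0002562) on X at 12490291 to 12492982, Lsp1beta (FBgn0002563) on 2L at 898500 to 901316, Lsp1gamma (FBgn0002564) on 3L at 66430 to 68995 and Lsp2 (FBgn0002565) on 3L at 12129393 to 12131869. Fbp1 (FBgn0000639) is on 3L at 14094589 to 14098053 and Fbp2 (FBgn0000640) on 2L at 9426784 to 9427917. The annotated reading frames are alike within the families, at 701 codons for Lsp2 and 772 to 816 for the Lsp1 genes, and at 420 to 442 for the yolk proteins, which resemble lipases.

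Antisense RNA genes cover much of Lsp2 and Yp1, and this bears on how their counts can be read. asRNA:CR11538 runs opposite to Lsp2 and shares 2096 of its 2477 exonic bases, and asRNA:CR45601 lies wholly within Yp1 and shares 875 of its 1611 bases. In these files all 121 genes whose exons lie entirely under exons of the opposite strand had 0 counts in all 6 libraries, as had all 309 genes lying entirely under exons of the same strand, against 17.2% of 11995 genes that share no exonic base. The counts thus hold no reads over stretches that a pair of genes share, on either strand. By this annotation that leaves at most 381 counted bases in Lsp2 and 736 in Yp1. Whether reads crossing the edge of a shared stretch were counted was not tested. If they were not, levels per length of unshared sequence are too low for Lsp2 and Yp1. The antisense genes themselves had 0 to 7 counts (asRNA:CR11538) and 0 counts (asRNA:CR45601). The same bases were counted in both diets, so this touches comparisons between genes first of all. The 381 unshared bases of Lsp2 lie at its 3' end, and its fold change describes that stretch only. Whether the rest of the transcript differed alike between the diets was not tested. Fbp2 shares 48 bases with CG42847, and the other 6 genes share none.

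Levels can be compared between these genes only per length, here as mean CPM per kilobase of unshared exonic sequence. On that scale the 3 yolk protein genes were nearly level. Yp3 was at 25036, Yp1 at 23832 and Yp2 at 20693 CPM per kb in deprived heads, and Yp1 was at 24880, Yp3 at 23730 and Yp2 at 22058 CPM per kb in replete heads. Among 10647 tested genes with at least 200 unshared bases they ranked 1, 2 and 3 in deprived heads and 2, 3 and 4 in replete heads, where the mitochondrial ribosomal RNA mt:lrRNA came first. The order among the 3 did not hold from library to library. Yp1 was below Yp3 in deprived library 3, at 25337 against 27529 CPM per kb, and above it in replete library 2, at 29888 against 23698 CPM per kb. If all exonic bases are used instead, Yp1 is at 10888 CPM per kb in deprived heads and 11367 CPM per kb in replete heads and falls behind Yp2, at 20693 and 22058 CPM per kb.

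Lsp2 came next, at 2841 CPM per kb in deprived heads and 1682 CPM per kb in replete heads, ranks 14 and 23. Over all exonic bases it would be at 437 and 259 CPM per kb. The remaining hexamerins were far lower on the unshared scale. Lsp1beta was at 277 CPM per kb in deprived heads and 69.9 CPM per kb in replete heads, Lsp1alpha at 3.75 and 1.36 CPM per kb, and Lsp1gamma at 0.594 and 0.264 CPM per kb. Fbp1, a receptor through which the larval fat body takes up LSP1, stood at 4.96 CPM per kb in deprived heads and 3.58 CPM per kb in replete heads. The order Lsp2, Lsp1beta, Lsp1alpha, Lsp1gamma held in each of the 6 libraries on this scale. It rests on the short counted length of Lsp2, since in CPM without length Lsp1beta was above Lsp2 in deprived library 3, at 1395 against 1212 CPM.

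**Figure D1:**
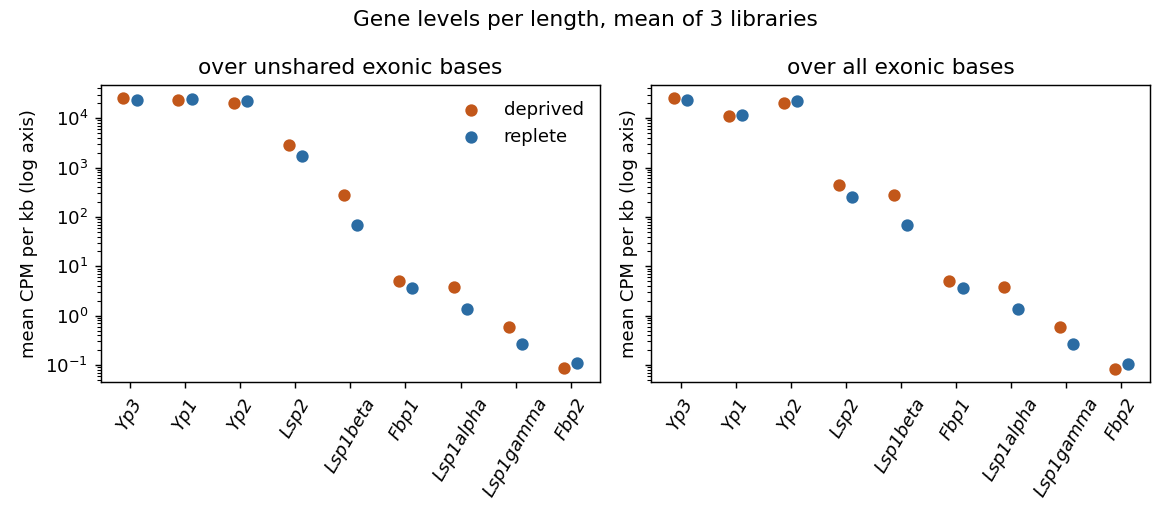
Mean CPM per kb (log axis, mean of 3 libraries) of the 9 genes in deprived and replete heads, over the exonic bases that no other gene shares (left) and over all exonic bases (right). On the left the yolk protein genes lie between 20693 and 25036 CPM per kb, and on the right Yp1 and Lsp2 are lower.

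Lsp2 was the only gene of the set called between the diets. It had 1119, 915 and 1212 CPM in deprived libraries 1, 2 and 3, against 649, 734 and 540.0 CPM in replete libraries 1, 2 and 3. All deprived libraries lay above all replete ones. The mean was 1082 ± 152 CPM in deprived heads and 641 ± 97.1 CPM in replete heads (SD, n = 3 each), and Lsp2 rose 1.69-fold, with a 95% interval of 1.38 to 2.06 (edgeR quasi-likelihood, BH-adjusted p = 0.0373). Its spread between libraries of a group was ordinary, with an SD of log2 CPM of 0.22 at the 48.4th percentile of tested genes. Without replete library 2 the log2 fold change of Lsp2 was 0.86 and the call held (edgeR quasi-likelihood, BH-adjusted p = 0.0163). Without deprived library 1, deprived library 3, replete library 1 or replete library 3 the call was lost (edgeR quasi-likelihood, BH-adjusted p = 0.245, 0.229, 0.170 and 0.0774), at log2 fold changes of 0.65 to 0.76. It was also lost in limma-voom (BH-adjusted p = 0.0557) and, in the edgeR quasi-likelihood test, with non-robust dispersion (BH-adjusted p = 0.0771), with a replicate block (BH-adjusted p = 0.199) and with a clock gene covariate (BH-adjusted p = 0.726).

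Lsp1beta, which encodes a subunit of larval serum protein 1, had the largest fold difference of the set and varied widely between libraries. It had 486, 408 and 1395 CPM in deprived libraries 1, 2 and 3, against 256, 227 and 93.9 CPM in replete libraries 1, 2 and 3. The groups did not overlap, but deprived library 3 was 3.42 times as high as deprived library 2, and replete library 1 was 2.73 times as high as replete library 3. The mean of 763 ± 549 CPM in deprived heads and 192 ± 86.4 CPM in replete heads (SD, n = 3 each) gave a 3.97-fold difference, with an interval of 1.03 to 15.2, that did not pass (edgeR quasi-likelihood, BH-adjusted p = 0.968). Within groups its SD of log2 CPM was 0.88, at the 94.6th percentile of tested genes. Without deprived library 3 the log2 fold change was 1.22, against 1.99 with all libraries.

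Lsp1alpha, another subunit gene of larval serum protein 1, was sparse but separated. Deprived libraries 1, 2 and 3 had 8.74, 6.85 and 13.9 CPM, and replete libraries 1, 2 and 3 had 3.97, 4.06 and 2.71 CPM. The highest value was again that of deprived library 3 and the lowest that of replete library 3. The 2.75-fold difference, with an interval of 1.75 to 4.34, did not pass (edgeR quasi-likelihood, BH-adjusted p = 0.0963). DESeq2 called it higher (DESeq2, BH-adjusted p = 0.0019), and so did edgeR with no filter on low counts (edgeR quasi-likelihood, BH-adjusted p = 0.0138). Lsp1gamma, the third subunit gene, had 60, 20 and 22 counts in deprived libraries 1, 2 and 3 and 8, 22 and 4 counts in replete libraries 1, 2 and 3. Its groups overlapped and it did not pass (edgeR quasi-likelihood, BH-adjusted p = 0.999), and its log2 fold change of 1.15 was 0.45 without deprived library 1, 0.76 without replete library 3 and 1.98 without replete library 2.

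**Figure D2:**
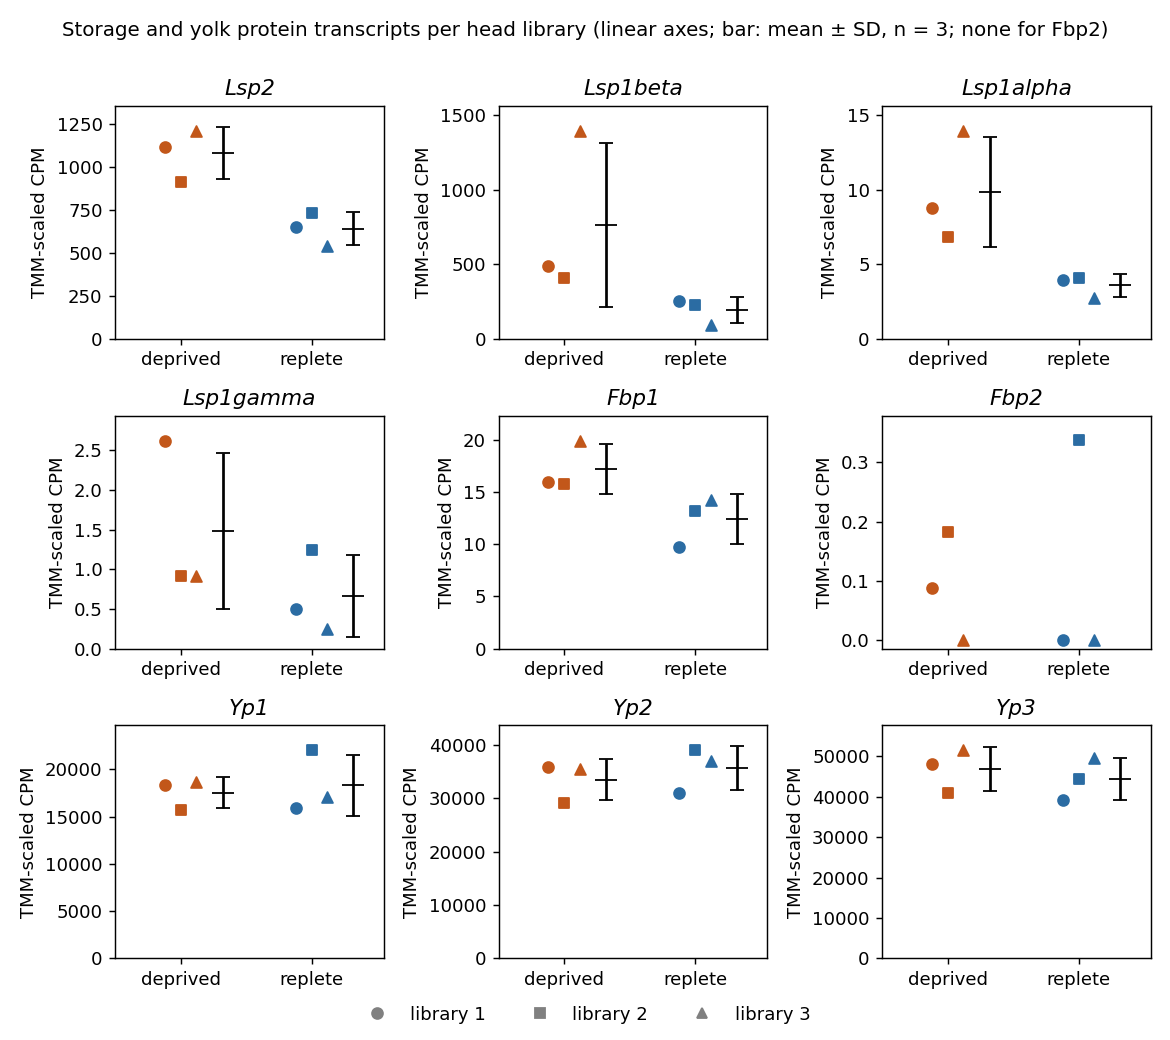
TMM-scaled CPM (linear axes) of each gene in the 3 deprived (left, orange) and 3 replete (right, blue) libraries, with the mean and SD beside the points except for Fbp2. Lsp2, Lsp1beta, Lsp1alpha and Fbp1 do not overlap between diets, and the yolk protein genes do.

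The hexamerin genes together took a larger share of the counts in every deprived library. The share was 0.162%, 0.136% and 0.260% in deprived libraries 1, 2 and 3 and 0.0936%, 0.0954% and 0.0614% in replete libraries 1, 2 and 3, with 95% Wilson intervals of at most ± 0.00203 percentage points that cover counting error only. The make-up of that pool also varied. Lsp1beta gave 53.2% of hexamerin counts in deprived library 3, 30.1% and 30.6% in deprived libraries 1 and 2, and 14.7% to 28.2% in the replete libraries. Lsp1alpha gave 0.515% to 0.541% in the deprived and 0.421% to 0.436% in the replete libraries. The ratio of Lsp1beta to Lsp2 counts was 0.434, 0.445 and 1.15 in deprived libraries 1, 2 and 3, against 0.395, 0.309 and 0.174 in replete libraries 1, 2 and 3. These shares and ratios are descriptions and were not tested.

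Fbp1 had 15.9, 15.7 and 19.9 CPM in deprived libraries 1, 2 and 3, against 9.73, 13.2 and 14.3 CPM in replete libraries 1, 2 and 3. The groups were separated by a small gap, between 15.7 and 14.3 CPM. The 1.39-fold difference, with an interval of 1.04 to 1.84, did not pass (edgeR quasi-likelihood, BH-adjusted p = 0.890). Fbp2, whose product resembles alcohol dehydrogenase, was removed by the filter on low counts. It had 2, 4 and 0 counts in deprived libraries 1, 2 and 3 and 0, 6 and 0 counts in replete libraries 1, 2 and 3. Where it had none, the 3 counts that a value of 0 allows correspond to 0.125 to 0.186 CPM, so no difference was detectable at this depth.

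The yolk protein genes were the most abundant of the set and overlapped between the diets. Yp1 had 18326, 15646 and 18648 CPM in deprived libraries 1, 2 and 3, against 15918, 21998 and 17019 CPM in replete libraries 1, 2 and 3. Yp2 had 35807, 29070.5 and 35567 CPM in the deprived libraries in the same order, against 31031, 39011 and 37025 CPM in the replete libraries. Yp3 had 47997, 40881 and 51425 CPM in the deprived libraries, against 39152, 44267 and 49561 CPM in the replete libraries. In each diet 1 library was lowest for all 3 genes, deprived library 2 and replete library 1. The log2 fold changes were -0.06 for Yp1, -0.09 for Yp2 and 0.08 for Yp3, and none passed (edgeR quasi-likelihood, BH-adjusted p = 0.999 for each). None had an unadjusted p under 0.05, and DESeq2 and limma-voom called 0 of the 3. The 95% intervals of the fold, deprived over replete, were 0.787 to 1.17 for Yp1, 0.781 to 1.13 for Yp2 and 0.877 to 1.27 for Yp3, so larger differences in either direction fall outside them.

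Together the yolk protein genes took 9.83 ± 0.916% of all counts in deprived and 9.75 ± 0.796% in replete libraries (SD, n = 3 each). The share was 10.2%, 8.78% and 10.5% in deprived libraries 1, 2 and 3 and 8.87%, 10.4% and 9.99% in replete libraries 1, 2 and 3, with Wilson intervals of at most ± 0.0143 points. Leaving them out of the library sizes gave a log2 fold change of 0.75 for Lsp2, against 0.76 with them. The balance among the 3 differed between libraries, and replete library 2 had the largest part of Yp1 and the smallest of Yp3. Yp1 made up 17.7% to 18.3% of yolk protein counts in the deprived libraries, against 20.9% in replete library 2 and 16.4% and 18.5% in the other replete libraries. Yp3 made up 47.0% to 48.7% in the deprived libraries, against 42.0% in replete library 2 and 45.5% and 47.8% in the other replete libraries. The ratio of Yp3 to Yp2 counts was 1.34, 1.41 and 1.45 in deprived libraries 1, 2 and 3 and 1.26, 1.13 and 1.34 in replete libraries 1, 2 and 3, and the groups did not overlap, by 1.340 against 1.339.

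Yolk protein transcripts are also made in ovarian follicle cells, and ovarian transcripts were found in these heads. The summed level of 7 female germline genes was 25.3, 57.4 and 23.9 CPM in deprived libraries 1, 2 and 3, against 91.8, 47.0 and 10.3 CPM in replete libraries 1, 2 and 3. The most abundant of them, osk, which directs germ plasm assembly in the oocyte, had 0 counts in replete library 3 and 39.9 CPM in replete library 1. The germline gene grk varied little, at 7.73 to 11.3 CPM over the 6 libraries. It gave 9.72 CPM of the sum in replete library 3. The 3 yolk protein genes summed to 103605 CPM in replete library 3, which had the lowest germline sum, and to 86100.5 CPM in replete library 1, which had the highest. The part of ovarian transcripts in the yolk protein values was not tested. Of the 16 eggshell genes, 6 to 9 were at 0 in the deprived libraries, 1 in replete library 2 and 8 and 10 in the other replete libraries. The most abundant eggshell gene, Cp38, a chorion protein gene, was at 0 to 0.822 CPM in the deprived libraries, against 24.4 CPM in replete library 2 and 0 CPM in the other replete libraries. Replete library 2 also held the highest Yp1 and Yp2. Without it the log2 fold changes were 0.091 for Yp1, -0.024 for Yp2 and 0.076 for Yp3, in place of -0.062, -0.092 and 0.077. None passed (edgeR quasi-likelihood, BH-adjusted p = 0.961, 0.993 and 0.978). With the mean log2 CPM of the germline genes osk, vas, otu and aub as a covariate, no yolk protein gene passed. In that fit Lsp2 passed (edgeR quasi-likelihood, BH-adjusted p = 0.0279).

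**Figure D3:**
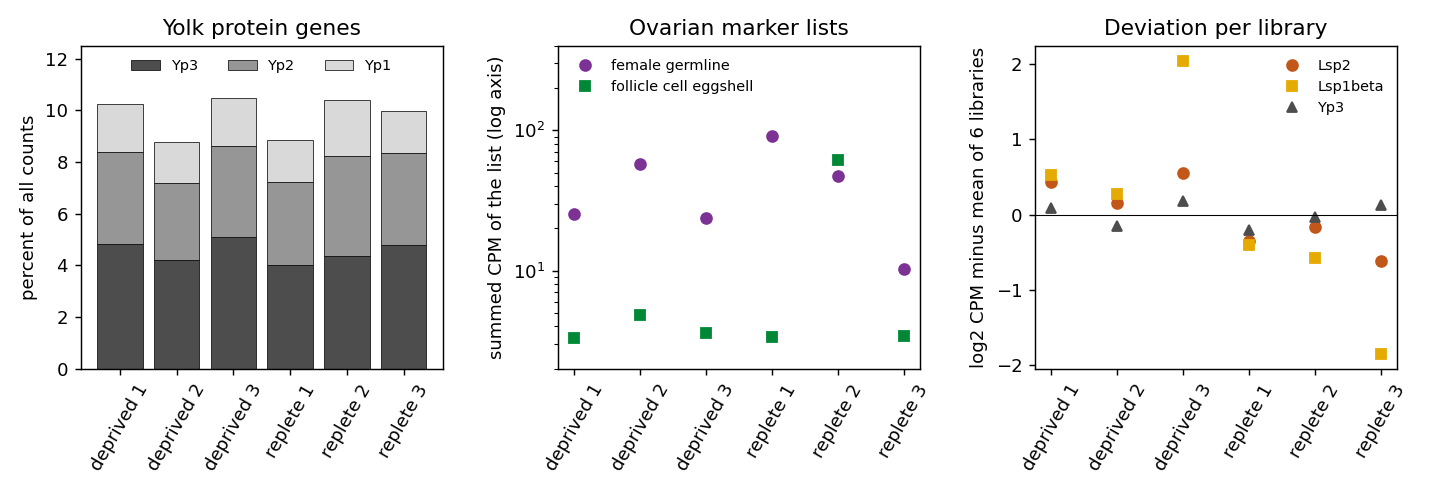
For each library: percent of all counts on Yp1, Yp2 and Yp3 (left), summed CPM of the female germline and follicle cell eggshell lists on a log axis (middle), and log2 CPM of Lsp2, Lsp1beta and Yp3 minus each gene's mean over the 6 libraries (right). Eggshell genes stand out in replete library 2 at 61.6 CPM, and Lsp1beta spans the widest range.

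Of the 9 genes, 8 were tested, and 1 of them was called higher (Lsp2) and 0 lower, against 0.294% of all tested genes called higher and 0.0367% called lower. Groups did not overlap in 4 of the 8, all higher in deprived heads (Lsp2, Lsp1beta, Lsp1alpha and Fbp1), against 5.86% of all tested genes that were higher without overlap and 5.02% that were lower. The same 4 had an unadjusted p under 0.05, against 2.72% of all tested genes that were higher and 2.41% that were lower at that level. The median log2 fold change of the 8 was 0.61, and that of all 10896 tested genes was -0.0089. By family, 4 of 4 hexamerin genes had a positive log2 fold change with a median of 1.30, and the yolk protein genes had 1 positive and 2 negative values with a median of -0.06. Without replete library 2 the count of called genes was again 1 of 8 (Lsp2), while 8 of the 20 alternatives tried called 0 of 8, among them 4 of the 6 that leave out a library. In bulk RNA a difference in the number of fat body cells and one in RNA per cell cannot be told apart.

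**Figure D4:**
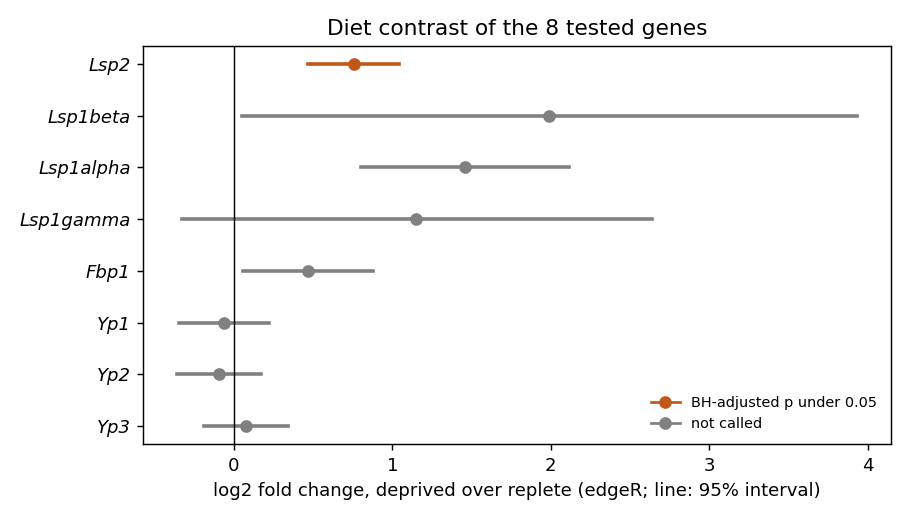
Log2 fold change, deprived over replete, with its 95% interval for the 8 tested genes (edgeR; orange: BH-adjusted p under 0.05). Lsp2 is the gene called, the interval of Lsp1beta is the widest, and those of the yolk protein genes span 0.

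Clock genes also varied between the libraries, and they were looked at because earlier results pointed to them. The clock repressor gene tim had 338, 348 and 550 CPM in deprived libraries 1, 2 and 3, against 455, 238 and 87.6 CPM in replete libraries 1, 2 and 3. The clock output regulator vri had 284, 247 and 485 CPM in deprived libraries 1, 2 and 3, against 315, 175 and 64.9 CPM in replete libraries 1, 2 and 3. Deprived library 3 was highest and replete library 3 lowest for tim, vri, Lsp2, Lsp1beta and Lsp1alpha alike. The same held for per, another clock gene, at 121.26 to 131.25 CPM in deprived libraries and 35.1 to 91.2 CPM in replete libraries. For per, as for these 3 hexamerin genes, the groups did not overlap. The libraries between did not follow the same order for all genes. Replete library 1 was above deprived library 1 for tim and vri, and below it for per and these 3 hexamerin genes. Deprived library 2 was above deprived library 1 for per and below it for these 3 hexamerin genes. Lsp1gamma was highest in deprived library 1. Clk, the activator gene, ran the other way, at 42.3 to 47.8 CPM in deprived libraries and 45.9, 70.3 and 94.8 CPM in replete libraries 1, 2 and 3. The clock gene cry was likewise highest in replete library 3. With a clock gene score as a covariate the log2 fold changes were 0.58 for Lsp2, 0.98 for Lsp1beta, 1.03 for Lsp1alpha and 0.69 for Fbp1, against 0.76, 1.99, 1.46 and 0.47 without it. None of the 8 genes passed in that fit (edgeR quasi-likelihood, BH-adjusted p = 0.726 for Lsp2). The score, scaled over the 6 libraries, was 0.373, 0.493 and 0.942 in deprived libraries 1, 2 and 3 and 0.497, -0.510 and -1.80 in replete libraries 1, 2 and 3. It follows diet in part, so clock state and diet cannot be fully told apart.

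Genes with the pattern most like that of Lsp2 were taken by the root mean square difference in centred log2 CPM over the 6 libraries, among the 9076 tested genes that averaged 2 CPM or more. The nearest 5 were CG14696 at 0.11, CG12171 at 0.13, tko, a mitochondrial ribosomal protein gene, at 0.13, Mdr50, an ABC transporter gene, at 0.13, and the neuropeptide gene Orcokinin at 0.14. None of these 5 was called (edgeR quasi-likelihood, BH-adjusted p = 0.185 to 0.950). The same measure for Lsp1beta, added after its values were seen, gave Cyp309a1 at 0.45, Lsp1alpha at 0.46, tobi at 0.54, vri at 0.54 and Ugt37A3 at 0.56. Of all genes compared, Lsp1alpha of the same family was thus the second nearest to Lsp1beta.

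Among 16 other genes of adult fat body and haemolymph, 0 passed in edgeR, DESeq2 and limma-voom, with 1 higher and 1 lower at an unadjusted p under 0.05 and a median log2 fold change of -0.0061. The fat body glucosidase gene tobi, a target of insulin-like signalling, had 438, 429 and 752 CPM in deprived libraries 1, 2 and 3, against 337, 213 and 171 CPM in replete libraries 1, 2 and 3. Its groups did not overlap and it was highest and lowest in the same libraries as Lsp1beta, but it did not pass (edgeR quasi-likelihood, BH-adjusted p = 0.877). The feeding-related gene to (takeout) was at 78.0 to 103 CPM in deprived heads and 88.3 to 143 CPM in replete heads. Mtp, which loads lipid onto lipoproteins, was at 117 to 169 CPM in deprived heads and 118 to 120 CPM in replete heads, and the fatty acid synthase gene FASN1 at 4368 to 5225 CPM and 4360 to 6213 CPM. The lipoprotein gene apolpp, named after its values were seen, was at 27165 to 34528 CPM in deprived heads and 26886 to 29136 CPM in replete heads.

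Of 20 genes that control yolk or storage protein transcription, 0 passed in edgeR, DESeq2 and limma-voom, with 0 at an unadjusted p under 0.05 and a median log2 fold change of -0.03. The 4 with the smallest p were the ecdysone-induced factor genes Eip74EF and br, the sex determination splicing factor gene tra2 and the nuclear receptor gene Hnf4. Eip74EF was at 89.7 to 96.3 CPM in deprived heads and 74.9 to 84.9 CPM in replete heads, without overlap (edgeR quasi-likelihood, BH-adjusted p = 0.976). For br, levels were 116 to 132 CPM in deprived heads and 105 to 119 CPM in replete heads, tra2 at 12.2 to 14.2 CPM and 13.8 to 19.4 CPM, and Hnf4 at 110 to 121 CPM and 116 to 143 CPM. The gene dsx itself, named after its values were seen, was at 75.0 to 89.7 CPM in deprived heads and 75.1 to 113 CPM in replete heads.

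None of 4 genes for the uptake of yolk and lipoproteins passed in edgeR, DESeq2 and limma-voom, and 0 had an unadjusted p under 0.05. The yolk protein receptor gene yl had 21.6, 55.1 and 10.2 CPM in deprived libraries 1, 2 and 3, against 86.5, 35.2 and 1.599 CPM in replete libraries 1, 2 and 3. Its 6 libraries fell in the same order as the germline sum, highest in replete library 1 and lowest in replete library 3. The gene boca, which encodes a chaperone of the receptor family of Yolkless, was at 14.3 to 19.1 CPM in deprived heads and 9.10 to 19.1 CPM in replete heads. The lipophorin receptor genes LpR1 and LpR2 were at 91.5 to 102 CPM and 137 to 168 CPM in deprived heads, and at 87.9 to 106 CPM and 149 to 157 CPM in replete heads.

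Prophenoloxidases, the melanin-forming enzymes of blood cells, belong to the same protein superfamily as the hexamerins. Of 3 genes, 2 were tested and 0 passed in edgeR, DESeq2 and limma-voom, with 1 lower at an unadjusted p under 0.05. PPO1 had 17.9, 21.0 and 13.3 CPM in deprived libraries 1, 2 and 3, against 22.1, 25.6 and 31.1 CPM in replete libraries 1, 2 and 3, and did not pass (edgeR quasi-likelihood, BH-adjusted p = 0.518). The groups of PPO1 did not overlap, with replete heads higher, whereas those of PPO2 overlapped, at 21.97 to 28.2 CPM in deprived heads and 20.6 to 30.3 CPM in replete heads. PPO3 was at 0.251 to 0.787 CPM in deprived heads and 0.226 to 0.492 CPM in replete heads and was not tested.

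Genes of larval cuticle and salivary glue were near 0. They are not fat body genes, so whether larval fat body remained in these heads was not tested. Of 9 larval cuticle and salivary glue genes, 3 had 0 counts in all libraries and the sum of all 9 was 1.36 to 2.51 CPM in deprived heads and 1.18 to 1.41 CPM in replete heads. The most abundant was the glue protein gene Sgs4, at 0.656 to 1.29 CPM in deprived heads and 0 to 1.07 CPM in replete heads. Midgut protease genes summed to 0.0835 to 0.0913 CPM in deprived heads and to 0 CPM in replete libraries 1 and 3, with 4.51 CPM in replete library 2, where alphaTry was highest at 1.35 CPM. The 7 haemocyte genes summed to 996 to 1101 CPM in deprived heads and 1103 to 1133 CPM in replete heads. Replete heads were higher without overlap, but only by 1102.5 against 1101.3 CPM. Of the 7 genes, 0 had an unadjusted p under 0.05 (edgeR quasi-likelihood). Col4a1, a basement membrane collagen gene that fat body also expresses, was the most abundant of them at 412 to 445 CPM and 428 to 512 CPM. The 5 neuronal genes summed to 4413 to 4686 CPM in deprived heads and 4264 to 4416 CPM in replete heads, with Syt1 the most abundant. Of the 2 genes listed for oenocytes, Cpr was the more abundant, at 250 to 260 CPM in deprived heads and 244 to 297 CPM in replete heads. Cpr, too, was highest in replete library 2, at 297 CPM, against 244 and 274 CPM in the other replete libraries. Cyp4g1 was at 151 CPM there, against 2.98 and 5.54 CPM. The level of Cpr is not read as an amount of oenocyte RNA, which was not tested. The part of any of these in the hexamerin values was not tested.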

How the data were processed

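The authors deposited a table of raw read counts for each library, as whole numbers per gene. The tools listed in the submitters' processing notes are STAR 2.5.3a, Subread 1.6.2, featureCounts, FastQC 0.11.5 and Trim Galore 0.4.2, while build, annotation and strand setting are not given there. Of 17509 identifiers, 17389 were placed in the BDGP6.54 annotation. Among genes with 1 to 20 counts, 63.7% to 69.8% of counts were even, where independent reads would give about as many odd counts; the cause was not tested, and if read pairs were counted as 2, the counting intervals are too narrow.

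Counts were filtered with filterByExpr (minimum count 10, minimum total 15; 10896 genes kept), TMM-normalized and compared with the edgeR 4.0.16 quasi-likelihood test in R 4.3.3, robust, with group as the only term and BH adjustment over all tested genes. The script was tested on simulated data. CPM uses TMM-scaled library sizes. No 2 replicate libraries agreed within counting noise (chi-square per degree of freedom 19.6 to 47.0).

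Genes and lists were chosen with earlier results of these data known. Of each further list up to 4 genes with the smallest p, or the most abundant cell type marker, were named. The alternatives tried were DESeq2 1.42.0, voom in limma 3.58.1, other filters and normalizations, non-robust dispersion, a replicate block, 2 covariates, thinning and leaving out each library. Sequences were not used here.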

Additional observations from a re-analysis of the deposited data

How the results depend on the processing

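Lsp2 was positive in all 20 alternatives and called in 12. Its log2 fold change was 0.76 in limma-voom (BH-adjusted p = 0.0557), 0.76 with non-robust dispersion (edgeR BH-adjusted p = 0.0771), 0.76 with the replicate block (edgeR BH-adjusted p = 0.199) and 0.58 with the clock covariate (edgeR BH-adjusted p = 0.726), with the call lost in each. Leaving out 1 library gave 0.65 to 0.86, and -0.15 to 0.091 for Yp1 and -0.0046 to 0.17 for Yp3. Same-numbered libraries did not deviate together (correlations -0.056, 0.022 and 0.184 across genes), so the replicate block rests on a shared number only. The hexamerin genes and Fbp1 stayed positive in every alternative in which they were tested; Lsp1gamma could not be tested with a filter of 1 CPM in 3 libraries. The yolk protein genes were not called in any alternative and changed sign in 4, at -0.0046 for Yp3 without replete library 1, 0.0098 for Yp1 without deprived library 2, 0.091 for Yp1 without replete library 2 and 0.014 for Yp2 with the clock covariate. Over all genes, 32 higher and 4 lower calls became 60 and 25 in DESeq2, 12 higher with the clock covariate, 10 lower with no filter and 7 lower with the germline covariate, with 18 to 32 higher and 2 to 7 lower when 1 library was left out. The cause of these changes was not tested. Depth limits Fbp2 and Lsp1gamma, at 0 to 6 and 4 to 60 counts per library.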
